A study of Mus musculus with 18 samples.

Results

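Marked and unmarked cells sorted from SmoM2 tumors were compared after Pecam1-positive cells had been gated away. The groups, chosen by their labels, were 4 arrays of Tom+/Pecam1- cells, called marked cells here, and 4 arrays of Tom-/Pecam1- cells, called unmarked cells. These are 8 of the 18 arrays of the series. Tumor mice carried aP2-Cre/+, tdTomato/+ and SmoM2/+ on a strain given as BJ;SJL;B6.129, so that unmarked cells came from mice with the same alleles as marked cells. Repeats 1 to 3 were tumors of mice at postnatal day 48 (P48) and repeat 4 at P38. With the same repeat numbers and ages, 4 arrays of Tom+/Pecam1+ tumor cells served to estimate the spread and as an endothelial yardstick. Normal sternocleidomastoid muscle, a neck muscle, of aP2-Cre/+ tdTomato mice (B6;SJL, P21, without SmoM2) gave Tom+ and Tom- cells (3 arrays each). Tissue had been digested with collagenase B and Dispase II before sorting, and RNA was amplified with the NuGen Ovation Pico method.

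aP2-Cre expresses Cre recombinase from the promoter of Fabp4, a fatty acid binding protein gene active in adipocytes and capillary endothelium, and tdTomato then marks any cell in whose history Cre was active, together with its descendants. SmoM2 is a form of Smoothened that signals without hedgehog ligand. Smoothened acts in the primary cilium and turns Gli proteins into activators, which raise a set of targets that includes Gli1 and the pathway's own brakes, Ptch1 and Hhip. Fusion-negative rhabdomyosarcoma is a soft tissue tumor that carries part of the skeletal muscle programme, in which Pax7 and Myf5 mark progenitors, Myod1 and Myog drive commitment and fusion, and the sarcomere genes come last.

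All values are the deposited log2 intensities. In the tumors the mean over the 3 populations was equal in all repeats at every probe set (largest range 7.67e-05, against a median range of 0.248 in muscle), so a level of 1 repeat cannot be set against that of another, and the difference within a repeat is the quantity to read. Each test therefore held the repeat number as a block. Array medians in the tumors ran from 5.41 to 5.44, and arrays correlated across genes at 0.988 to 0.994 among marked, 0.977 to 0.992 among unmarked and 0.943 to 0.977 between marked and unmarked cells. Each population had only 4 arrays, which limits the precision, and the calls also depended on which repeat was left out (given below). The labels call the repeats biological but do not say whether each was 1 mouse or a pool.

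At the threshold of 0.05 on the adjusted p, 2068 of the 15308 genes (13.5%) were called. Marked cells were higher in 949 of them (6.2%) and lower in 1119 (7.31%). Without the repeat block 2102 were called higher and 1901 lower. The changes downward were larger: at least 8-fold in 33 genes called lower and 1 called higher, and at least 2-fold in 616 called lower and 281 called higher. The dim filter let 350 genes through only with unmarked arrays, 130 of them called lower. It let 220 through only with marked arrays, 47 of them called higher. For these genes low values in the other populations were a condition of entry, so the sizes are a description. The 4 marked and 4 unmarked values did not overlap in 4372 genes (28.6%), although the removed repeat means narrow the spread within each population. Fewer calls were made without repeat 1 (85 higher and 252 lower), repeat 2 (158 and 254) or repeat 3 (476 and 472), and more without repeat 4 (1150 and 1475). In bulk samples such as these, fewer cells of a type and less RNA per cell cannot be told apart.

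**Figure D1:**
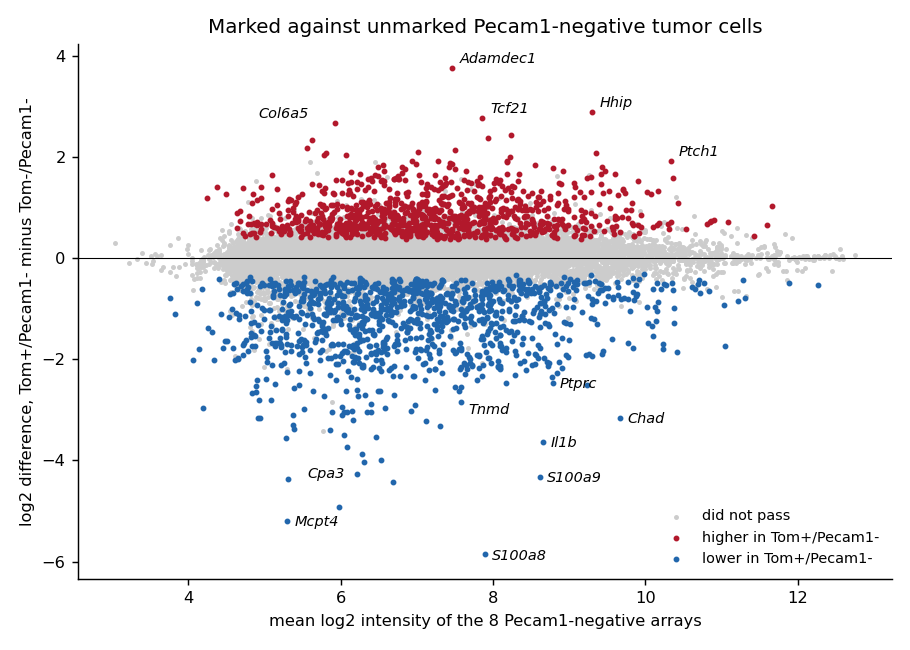
Log2 difference of Tom+/Pecam1- minus Tom-/Pecam1- tumor cells (y axis) against the mean log2 intensity of the 8 arrays (x axis) for the 15308 genes tested, with genes called higher in red, called lower in blue and the rest in grey. Adamdec1 at 3.75 is the highest point, and S100a8 at -5.86 the lowest.

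Pecam1, the adhesion molecule of the gate, stood at 6.99, 7.05, 7.43 and 6.94 in repeats 1 to 4 of marked cells, and at 7.38, 7.34, 6.91 and 7.84 in unmarked cells, against at least 11.57 in Tom+/Pecam1+ cells. Marked and unmarked values overlapped (difference -0.26, SE 0.21, adjusted p = 0.472). Fabp4, the gene whose promoter drives Cre, also overlapped: 9.29, 9.44, 9.18 and 9.16 in marked cells, and 9.38, 9.51, 9.29 and 10.62 in unmarked cells (difference -0.43, adjusted p = 0.475).

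A transcript from the Gt(ROSA)26Sor locus did separate the Tomato gates, and was chosen after its values were seen. This noncoding gene on chromosome 6 (GRCm38.p6, 113067428 to 113077244) is the site at which many Cre-dependent alleles are placed. Neither the labels nor the files say where tdTomato and SmoM2 lie in these mice. It read 7.87, 7.53, 7.71 and 7.88 in marked cells, against 6.35, 6.66, 6.71 and 6.32 in unmarked cells. All marked values were above all unmarked ones, by 1.24 (SE 0.14, adjusted p = 0.0017, and 0.0017 to 0.0271 without 1 repeat). Tom+/Pecam1+ cells read 8.07 to 8.31, and muscle split in the same way without SmoM2, at 8.24, 8.31 and 8.21 in Tom+ cells against 6.78, 6.48 and 6.77 in Tom- cells. The tumor difference minus the muscle difference was -0.34 (adjusted p = 0.247). The neighbouring genes did not pass: Thumpd3, which overlaps the locus in the annotation, differed by 0.02 (adjusted p = 0.941) and Setd5 by 0.04 (adjusted p = 0.863).

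**Figure D2:**
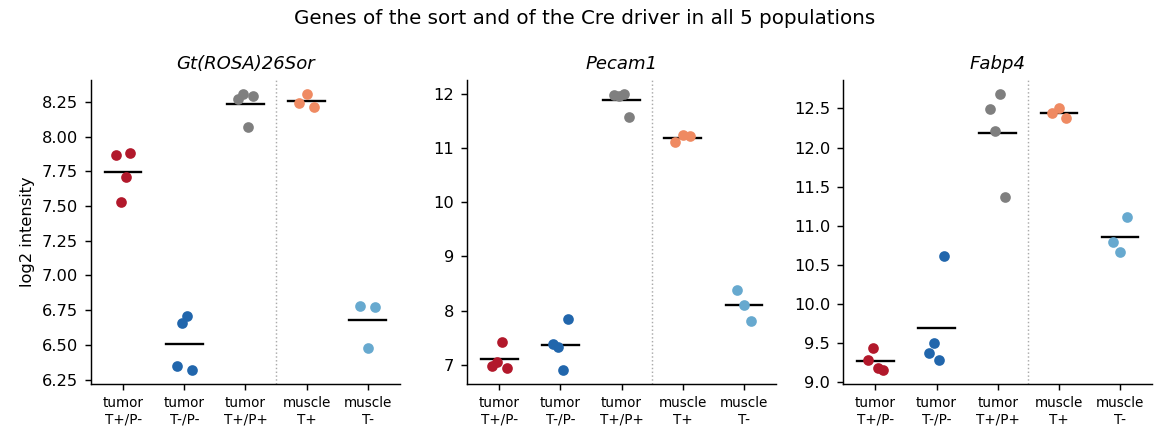
Log2 intensity (y axis) of Gt(ROSA)26Sor, Pecam1 and Fabp4 on every array of the 5 populations, with horizontal bars at the means. T+ and T- stand for the Tomato gates and P+ and P- for the Pecam1 gates. Gt(ROSA)26Sor lies between 7.53 and 8.31 in the 3 Tomato-positive populations and between 6.32 and 6.78 in the 2 Tomato-negative ones.

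Hedgehog genes were higher in marked cells. Gli1, the activator that is itself a target, read 9.52, 9.08, 8.53 and 9.73 in marked cells, against 6.91, 7.65, 7.72 and 6.59 in unmarked cells. The groups did not overlap, and the difference within a repeat was 2.61, 1.43, 0.81 and 3.14, smallest in repeat 3 and largest in repeat 4, for a 3.99-fold rise (SE 0.33 on the log2 scale, adjusted p = 0.00613). Ptch1, the receptor that restrains Smoothened, read 11.41, 11.04, 11.09 and 11.64 in marked cells, against 9.05, 9.78, 10.12 and 8.57 in unmarked cells (3.77-fold, adjusted p = 0.0104). Hhip, a membrane protein that binds and removes hedgehog ligands, had the same order of repeats, with differences of 3.12, 1.9, 1.05 and 5.49 (7.41-fold, SE 0.76, adjusted p = 0.034). Without 1 repeat, Gli1 lost its call without repeat 1 (adjusted p = 0.0697), Ptch1 without repeats 1 or 2 (0.0898 and 0.0518) and Hhip without repeats 1 or 2 (0.183 and 0.106), while without repeat 3 it lay at the threshold (0.05 after rounding, still called).

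Forkhead genes downstream of hedgehog in gut and limb mesenchyme rose with a narrower spread over the repeats. Fendrr, a long noncoding RNA transcribed next to Foxf1, read 6.45, 6.65, 6.76 and 6.71 in marked cells, against 4.54, 4.76, 4.18 and 4.39 in unmarked cells. Its differences of 1.91, 1.89, 2.58 and 2.32 gave a 4.52-fold rise (SE 0.16, adjusted p = 0.000262), and the unmarked values lay under the 40th percentile of their arrays, which was 4.8 to 4.88. Foxf2 rose 4.08-fold (7.09 ± 0.17 against 5.06 ± 0.21, SD, n = 4 each, adjusted p = 0.000844), and Foxf1 2.6-fold (adjusted p = 0.0221). The calls of Fendrr and Foxf2 held without each repeat in turn, with adjusted p up to 0.0137, while that of Foxf1 was lost without repeats 1, 2 or 3 (0.0694 to 0.106). Bmp4, a growth factor induced by hedgehog in many mesenchymes, rose 2.51-fold (8.41 ± 0.25 against 7.09 ± 0.31, adjusted p = 0.00409).

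Of 23 hedgehog feedback and target genes tested, 13 rose and 3 fell (median difference 0.77, against 0.03 over all genes tested), a set that includes Foxd1, Foxl1, Foxd2, Rab34, Cdon and Igf2 among those that rose. The count was 3 rising and 0 falling without repeat 1, 5 and 0 without repeat 2, 9 and 2 without repeat 3, and 13 and 3 without repeat 4. The genes that fell were Ccnd2, a cyclin of G1 phase (-1.06, adjusted p = 0.00915), Osr1, a transcription factor of fibro-adipogenic progenitors (-1.74, adjusted p = 0.0176), and Sfrp2, a secreted Wnt antagonist (-1.31, adjusted p = 0.0265). The coreceptor gene Gas1 stood at -0.14 (adjusted p = 0.668) and Boc at -0.38 (adjusted p = 0.413). Within each repeat, unmarked cells read higher than Tom+/Pecam1+ cells for Gli1 (5.4, 5.1, 5.58 and 5.51 in Tom+/Pecam1+ cells). For Ptch1, where Tom+/Pecam1+ cells read 8.73, 8.37, 7.98 and 8.98, this held in repeats 1 to 3 and not in repeat 4. These orders were not tested.

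Among 15 genes that transduce the signal, 4 rose and 1 fell (median 0.28), and 1, 2, 4 and 7 rose without repeats 1 to 4 in turn. The 1 of 15 that fell is near the 7.31% called lower over all genes. Smo read 9.35, 9.14, 9.12 and 9.21 in marked cells, against 7.85, 8.36, 8.4 and 8.25 in unmarked cells (1.99-fold, adjusted p = 0.00467). Its groups did not overlap, and no label says whether its probes read the SmoM2 transcript as well. Gli2, the main activator of the pathway, rose by 0.93 (adjusted p = 0.00767), Gpr161, a cilium receptor that restrains it, by 0.6 (adjusted p = 0.0291), and Gprasp2 by 1.48 (adjusted p = 0.0299). Arrb2, an arrestin also abundant in leukocytes, fell (-1.58, adjusted p = 0.00426). Gli3, which acts mainly as a repressor, stood at 0.29 (adjusted p = 0.425) and the Gli-binding protein gene Sufu at 0.41 (adjusted p = 0.077). Of 14 primary cilium genes 2 rose, Tctn2 (0.68) and Dync2h1 (0.58), and 0 fell (median 0.41). Without repeat 4 there were 6 of these that rose, and 0 without repeats 1, 2 or 3.

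**Figure D3:**
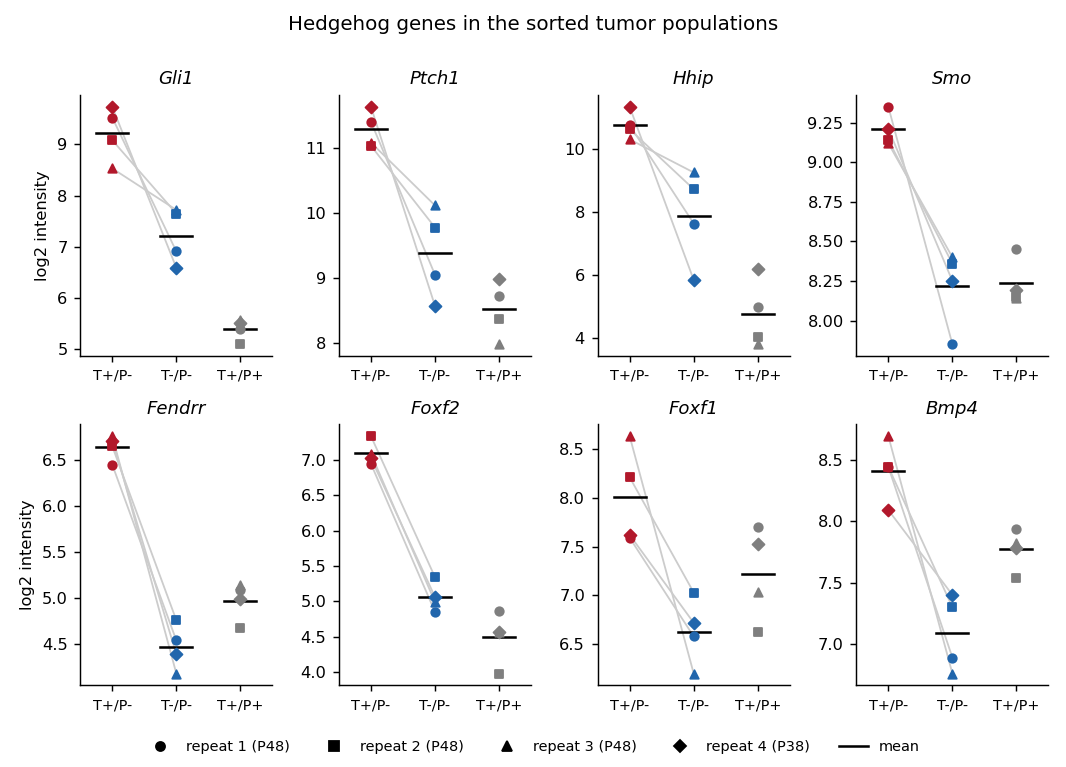
Log2 intensity (y axis, with its own range in each panel) of 8 hedgehog genes in Tom+/Pecam1- (T+/P-), Tom-/Pecam1- (T-/P-) and Tom+/Pecam1+ (T+/P+) tumor cells, with a symbol for each repeat, grey lines joining marked and unmarked cells of a repeat, and black bars at the means. Marked cells are above unmarked cells in 4 of 4 repeats for each gene, and the lines of Gli1, Ptch1 and Hhip are steepest in repeat 4.

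Secreted signals and their receptors were mixed in direction. Of 22 genes of the BMP list, whose ligands pattern mesenchyme, 8 rose and 2 fell (median 0.38). Ligand genes Bmp4, Bmp3 (1.11), Bmp6 (0.99), Bmp7 (1.57) and Gdf10 (1.3) rose together with the antagonist gene Sostdc1 and the responsive genes Smad6 (0.88) and Id1 (0.71). Sostdc1 rose 5.42-fold (9.45 ± 0.56 against 7.01 ± 0.78, adjusted p = 0.0148, and 0.115 and 0.104 without repeats 1 and 2). The antagonist genes Chrdl1 (-1.15) and Bmper (-0.96) fell. Without 1 repeat the list gave 1 to 10 rising and 0 to 1 falling.

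In the Wnt list of 24 genes, 5 rose and 1 fell (median -0.03, against 0.03 over all genes tested). The ligand genes Wnt5a (7.31 ± 0.3 against 5.77 ± 0.44, adjusted p = 0.00998), Wnt2b (1.64) and Wnt9a (0.58), the nuclear factor Lef1 (1.05) and the secreted antagonist Wif1 (3.44-fold, adjusted p = 0.0241) rose, and Sfrp2 fell. Axin2, a general readout of canonical Wnt signaling, stood at 0.16 (adjusted p = 0.577; named after its value was seen). Of 28 genes of the FGF, IGF and PDGF list, 8 rose and 4 fell. Fgfr4, a receptor of muscle progenitors and of rhabdomyosarcoma, read 8.01, 8.1, 7.94 and 8.17 in marked cells, against 6.29, 6.99, 7.19 and 6.03 in unmarked cells (2.7-fold, adjusted p = 0.0173). The growth factor gene Igf2 rose 2.39-fold (10.7 ± 0.34 against 9.44 ± 0.56, adjusted p = 0.039), and Fgfr2 by 1.11, Egfr by 0.7, Pdgfc by 0.93 and the binding protein genes Igfbp5, Igfbp3 and Igfbp4 by 1.03, 0.66 and 0.57. Fgf18 (-1.35), Pdgfd (-1.52), Pdgfb (-0.57) and Igfbp6 (-0.7) fell. Without 1 repeat, 0 to 6 genes of the Wnt list rose and 0 to 2 fell, and 1 to 9 of the growth factor list rose and 0 to 5 fell.

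The muscle programme was higher in marked cells from progenitor genes to the sarcomere. Pax7, the transcription factor of muscle stem cells, read 9.12, 8.98, 8.73 and 9.23 in marked cells, against 7.15, 7.64, 8.17 and 6.46 in unmarked cells. Its groups did not overlap, and the differences of 1.96, 1.34, 0.56 and 2.78 followed the order of repeats seen for Gli1 (3.16-fold, adjusted p = 0.02). Myf5 rose 3.19-fold (differences 2.08, 1.0, 0.4 and 3.22, adjusted p = 0.0269). Of 22 progenitor genes 8 rose and 0 fell (median 0.43), the others being Cdh15 (M-cadherin, 1.46), Megf10 (1.36), Heyl (1.13), Dag1 (0.58), Eya4 (1.21) and Ncam1 (1.72). Pax3, which precedes Pax7 in the embryo, stood at -0.15 (adjusted p = 0.548; chosen after its value was seen). The call of Pax7 was lost without repeats 1 or 2 (adjusted p = 0.14 and 0.0947), and the list gave 0, 0, 5 and 10 rising without repeats 1, 2, 3 and 4.

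Of 24 commitment genes, 14 rose and 0 fell (median 1.03). Myod1 rose 2.34-fold (7.97 ± 0.21 against 6.74 ± 0.37, adjusted p = 0.0226), and Myog 2.86-fold (9.09 ± 0.28 against 7.57 ± 0.55, adjusted p = 0.0162). Myf6, the last of the 4 regulators in development, read 6.74, 6.45, 6.71 and 6.95 in marked cells, against 4.94, 5.47, 5.24 and 5.02 in unmarked cells, and was the steadiest of them (2.92-fold, adjusted p = 0.00102, and 0.000853 to 0.0144 without 1 repeat). Also higher were Klhl41 (1.57), Cav3 (1.15), Des, the muscle intermediate filament desmin (1.24), the fusion gene Mymk (1.71), and genes of the nerve-muscle synapse: Musk (1.45), Chrnb1 (1.19), Chrna1 (1.57) and Rapsn (1.31). Without 1 repeat, 3, 4, 10 and 13 of the list rose. Myod1 and Myog lost their calls without repeats 1 (0.126 and 0.112) or 2 (0.102 and 0.0837), and Myod1 also without repeat 3 (0.0698).

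Of 36 sarcomere genes, 26 rose and 1 fell, Tpm3, a tropomyosin that other cell types also make (-0.62, adjusted p = 0.0121). The median difference was 1.32, against 0.03 over all genes tested, and by repeat it was 1.94, 0.87, 0.61 and 1.41. Embryonic myosin Myh3 rose 3.66-fold (8.37 ± 0.39 against 6.5 ± 0.62, adjusted p = 0.00995), titin (Ttn) 3.55-fold (adjusted p = 0.00726), and the skeletal actin gene Acta1 3-fold, at 11.35, 11.31, 11.07 and 10.85 in marked cells against 9.1, 10.06, 10.08 and 9.01 in unmarked cells (adjusted p = 0.0247). Adult fast Myh1 rose by 1.53 and Tnnt3 by 1.49, while slow Myh7 stood at 0.39 (adjusted p = 0.116; named after its value was seen). Without repeats 1 to 4 in turn, 7, 11, 18 and 25 genes rose. Ttn and Myh1 are expressed in skeletal muscle fibres, and fibres themselves were not a gate of the sort.

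Muscle physiology genes followed. Of 16 calcium genes 8 rose and 0 fell (median 0.95). Sln, a small peptide that restrains the calcium pump, read 7.01, 5.94, 6.86 and 7.33 in marked cells, against 4.23, 4.99, 4.41 and 4.14 in unmarked cells (5.06-fold, adjusted p = 0.0028), with 1 of 4 unmarked values over the 40th percentile of its array. The pump gene Atp2a1 rose by 1.17 and the release channel Ryr1 by 1.4. Of 18 muscle energy genes 7 rose and 0 fell, among them myoglobin (Mb, 2.81-fold, adjusted p = 0.00178) and Cox8b (1.59). Glycolysis genes moved both ways. Of 17 tested, the muscle isoforms Pgam2 (1.09), Pfkm (0.96) and Eno3 (0.84) rose, and Pfkp (-0.81), Hk2 (-0.72) and the glucose transporter gene Slc2a1 (-0.68) fell. Without 1 repeat, 1 to 7 calcium genes, 2 to 5 energy genes and 0 to 3 glycolysis genes rose, and 1 to 4 glycolysis genes fell. The dim filter let 2 calcium and 2 sarcomere genes through only with marked arrays, and all 4 are among those that rose.

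**Figure D4:**
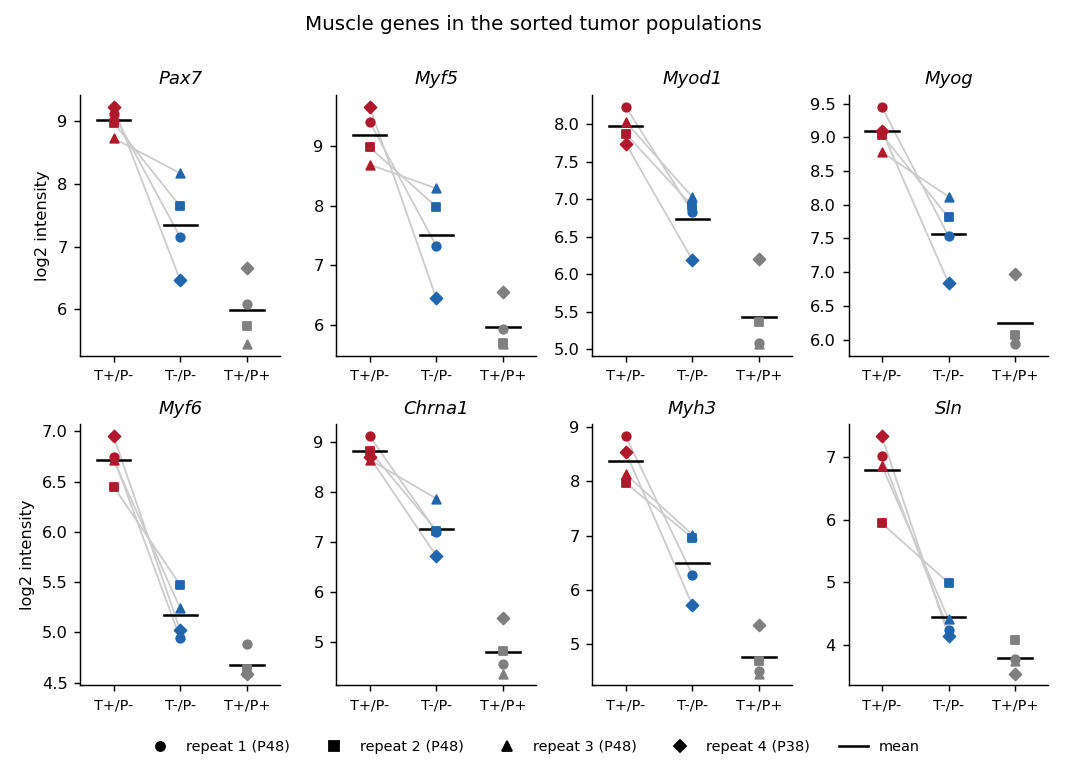
Log2 intensity (y axis, with its own range in each panel) of 8 muscle genes in Tom+/Pecam1- (T+/P-), Tom-/Pecam1- (T-/P-) and Tom+/Pecam1+ (T+/P+) tumor cells, with a symbol for each repeat, grey lines joining marked and unmarked cells of a repeat, and black bars at the means. Marked cells are above unmarked cells in 4 of 4 repeats for each gene, and unmarked cells of repeat 3 lie nearest to marked cells for Pax7 and Myf5.

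Myod1 and its relatives bind the E-box CANNTG, which in muscle genes often reads CAGCTG. The promoters of Chrna1 and Acta1 are shown because both genes rose and both hold it, in capitals, in the window from 250 bases before to 50 after the start (RefSeq, GRCm38.p6, both on the minus strand, written 5′ to 3′). The Chrna1 window is chr2:73580289-73580588 and holds it at -92 and -44 from the start, and the Acta1 window is chr8:123894726-123895025 and holds it at -221.
Chrna1: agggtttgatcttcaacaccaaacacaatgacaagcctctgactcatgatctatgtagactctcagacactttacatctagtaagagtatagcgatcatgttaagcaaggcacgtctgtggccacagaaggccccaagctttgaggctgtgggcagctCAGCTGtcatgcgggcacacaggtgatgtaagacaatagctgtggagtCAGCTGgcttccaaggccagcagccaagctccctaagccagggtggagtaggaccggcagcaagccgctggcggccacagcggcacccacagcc
Acta1: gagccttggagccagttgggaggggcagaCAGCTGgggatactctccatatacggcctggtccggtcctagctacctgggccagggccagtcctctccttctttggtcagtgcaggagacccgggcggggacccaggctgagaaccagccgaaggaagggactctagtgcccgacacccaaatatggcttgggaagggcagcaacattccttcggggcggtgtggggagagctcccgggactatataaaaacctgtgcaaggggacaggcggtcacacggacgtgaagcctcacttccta
CAGCTG reads the same on both strands. Among genes tested that have a window, it stood in 8 of 16 commitment genes (50%), 11 of 28 sarcomere genes (39.3%) and 5 of 9 calcium genes (55.6%), and in 2252 of 11891 genes in all (18.9%). The E-box CAGGTG, searched on both strands, stood in 4 of 16, 7 of 28 and 2 of 9 of the same genes, and in 21.6% of all. The Gli motif TGGGTGGTC, searched on both strands, was in 0 of the 14 hedgehog targets with a window and in 0.252% of all genes tested, so that these letters are absent from these windows and nothing follows for Gli binding elsewhere. These shares describe sequence and were not tested.

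Transcription factors of head mesoderm, from which neck and face muscles arise, were partly higher: 6 of 15 rose and 0 fell (median 0.14). Tcf21, which precedes Myod1 in head muscle, read 9.03, 9.23, 8.9 and 9.81 in marked cells, against 6.35, 7.01, 6.88 and 5.68 in unmarked cells (6.79-fold, adjusted p = 0.00209, and 0.000446 to 0.0249 without 1 repeat). Tbx1 (1.35), Tbx3 (1.05), Tbx2 (0.8), Nkx2-5 (0.83) and Isl1 (0.56) rose as well. Without repeats 1 to 4 in turn, 1, 4, 3 and 6 rose. Of 12 Hox genes tested, Hoxa2 rose (0.6) and Hoxd8 fell (-0.85), shares near the 6.2% and 7.31% over all genes, with 0, 0, 0 and 1 rising and 0, 0, 1 and 1 falling without repeats 1 to 4 in turn. Of 16 imprinted growth genes, Igf2, Dlk1 (0.77) and Zim1 (0.98) rose, 0 fell and the median was 0.56. Without 1 repeat, 0 to 2 of the imprinted genes rose.

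Other genes with large increases were of the matrix and the cell surface. Adamdec1, a secreted metalloprotease, read 9.28, 9.97, 9.67 and 8.45 in marked cells, against 5.68, 5.72, 5.28 and 5.7 in unmarked cells, the largest increase of all genes called (13.5-fold, SE 0.38, adjusted p = 0.000926). Its call held without each repeat in turn (adjusted p up to 0.0152), and Tom+/Pecam1+ cells averaged 5.48. Col6a5 and Col6a4, collagen VI chains, rose 6.37-fold and 4.2-fold (adjusted p = 0.000681 and 0.00122), whereas Col6a1, Col6a2 and Col6a3, named after their values were seen, stood at 0.5, 0.56 and 0.55 (adjusted p = 0.082 to 0.334). Col6a5 was over the 40th percentile on 1 unmarked and 0 Tom+/Pecam1+ arrays, so it passed the dim filter only with marked arrays. Of 32 collagen genes, 5 rose and 1, Col11a1, fell (1, 2, 1 and 8 rising and 0, 0, 0 and 1 falling without repeats 1 to 4 in turn), and the fibrillar chain gene Col1a1 stood at 0.11 (adjusted p = 0.652). Of 22 matrix proteases and inhibitors, Adamdec1 and Adamts9 (1.01) rose, and Mmp9 (-1.97) and Mmp8, both of neutrophil granules, fell. These counts stand near the shares of 6.2% and 7.31% over all genes, and without 1 repeat 1 to 5 of the list rose and 0 to 3 fell. Robo2, a receptor for Slit guidance proteins, rose 4.12-fold (6.81 ± 0.23 against 4.76 ± 0.36, adjusted p = 0.00102).

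Of 15 basement membrane genes, 5 rose and 0 fell (median 0.67): the laminin chains Lamc3 (1.63), Lama5 (1.05) and Lama2 (0.67), agrin (Agrn, 0.77) and Ntn4 (0.97). Of 28 guidance genes 7 rose, Robo1 (1.2), Plxna2 (1.22) and Epha3 (1.33) among them, and 3 fell, Slit2 (-1.25), Plxna4 (-0.82) and Sema4d (-0.97). Among 17 cadherins and adhesion genes, 7 rose and 4 fell, and 1 of these 4 passed the dim filter only with unmarked arrays. Cdh13 (1.23), Cdh2 (N-cadherin, 0.84), Cdh11 (0.71) and Jam3 (0.81) rose beside the muscle genes Cdh15 and Ncam1, while L1cam (-1.51), Cdh19 (-2.01), Alcam (-1.7) and Cadm1 (-1.29) fell. Without 1 repeat, 1 to 7 laminin genes, 1 to 13 guidance genes and 1 to 7 adhesion genes rose, and 0 to 4 guidance genes and 3 to 5 adhesion genes fell. The remaining genes among the 20 largest increases were Tmem171 (2.38), Enpp6 (2.13), Alpl (2.07), Pcdhb10 (1.92), Unc13c (1.91), the leptin receptor gene Lepr (1.91) and Bex1 (1.89).

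Signaling lists beyond hedgehog and muscle held smaller counts. Of 17 Notch genes 6 rose, among them the targets Hey1 (1.09) and Heyl and the receptor gene Notch1 (0.69), and the nuclear partner Rbpj fell (-0.51). Among 16 TGF-beta genes, Tgfb2 (1.34), Ltbp1 (0.83), Smad3 (0.82) and Smad7 (0.51) rose and Tgfbr1 fell (-0.52). Snai1, a repressor of epithelial genes, rose by 0.78 (adjusted p = 0.00606), Tgfb2 and Cdh2 rose also in the list of 11 mesenchymal transition genes, and 0 fell. Without 1 repeat, 0 to 5 Notch genes, 0 to 4 TGF-beta genes and 0 to 4 transition genes rose. The 1 of 17 Notch genes and 1 of 16 TGF-beta genes that fell are near the 7.31% called lower over all genes. Rbpj and Tgfbr1 lost their calls without repeats 1, 2 or 3 (adjusted p = 0.0772 to 0.167 and 0.062 to 0.16). Alkaline phosphatase (Alpl) and Sp7, both of osteoblasts, rose, while Bglap, Ibsp and Dmp1, the other osteoblast genes of the 5 tested, had adjusted p from 0.346 to 0.739. Of the 5, 0, 1, 1 and 2 rose without repeats 1 to 4 in turn.

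Few proliferation genes passed. Of 28 cell cycle genes 0 rose and 2 fell (median 0.11), a share near the 7.31% called lower over all genes: Pcna, the polymerase clamp (10.1 ± 0.08 against 10.59 ± 0.06, adjusted p = 0.0178), and Mcm3 (-0.56, adjusted p = 0.0423). Mcm3 lost its call without any 1 repeat, and Pcna without repeats 1, 2 or 3 (0.128, 0.084 and 0.0758). The proliferation marker Mki67 read 8.31, 8.54, 8.59 and 7.97 in marked cells, against 8.55, 8.6, 8.48 and 8.15 in unmarked cells, and the values overlapped (adjusted p = 0.855). At 4 arrays a group, a p that misses the threshold does not show equal rates. Of 8 inhibitor genes, the neighbours Cdkn2b (0.83, adjusted p = 0.0115) and Cdkn2a (0.66, adjusted p = 0.0179) rose, and Cdkn1a, Cdkn1b, Cdkn1c, Cdkn2c, Rb1 and Ccng1 were between -0.22 and 0.69 with no call. Cdkn2b kept its call without repeat 4 alone and lost it without repeats 1, 2 or 3 (0.0892, 0.051 and 0.0537). Cdkn2a kept its call without repeats 2 and 4 and lost it without repeat 1 (0.128) and repeat 3 (0.0708). Ribosomal protein genes gave 0 calls among 16 by limma (0 at an unadjusted p under 0.05), and a median of -0.01.

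Leukocyte genes were lower in marked cells, with the largest changes of the comparison. All 14 pan-leukocyte genes fell (median -1.94), and 6, 7, 7 and 14 fell without repeats 1 to 4 in turn. Ptprc (CD45), the surface marker of leukocytes, read 7.22, 7.69, 7.68 and 7.81 in marked cells, against 10.29, 10.07, 10.35 and 9.12 in unmarked cells (-2.36, SE 0.32, adjusted p = 0.00307). The groups did not overlap, yet marked cells lay above the 4.28 to 5.38 of Tom+/Pecam1+ cells. The median level of the list on each array was 6.59 to 6.9 in marked cells and 7.92 to 9.37 in unmarked cells. The part that this difference in leukocyte RNA has in the hedgehog and muscle results was not tested.

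Neutrophil genes fell in 12 of 14 cases and rose in 0. S100a8, a subunit of the calcium-binding protein calprotectin, read 4.54, 5.19, 5.24 and 4.86 in marked cells, against 11.18, 10.43, 10.59 and 11.07 in unmarked cells (-5.86, SE 0.22, adjusted p = 3.15e-06, and 1.75e-05 to 0.000259 without 1 repeat). Its partner S100a9 fell by 4.33 (adjusted p = 0.000141), the decoy receptor gene Il1r2 by 4.43, Stfa2l1 by 4.36 and Retnlg by 4.93. Genes of late granules depended on the repeat. Camp, a cathelicidin, read 3.03, 3.11, 4.88 and 5.24 in marked cells, against 9.79, 9.69, 5.17 and 5.24 in unmarked cells, so that repeats 1 and 2 carried the difference (-3.41, adjusted p = 0.113). The protease gene Mmp8 (-3.49, adjusted p = 0.0278) differed by -5.42 and -6.13 in repeats 1 and 2 and by -0.92 and -1.5 in repeats 3 and 4. The dim filter let 3 of the 14 genes, Il1r2, Stfa2l1 and Retnlg, through only with unmarked arrays, and all 3 fell. Low marked values were a condition of their entry, so their sizes are a description. Over the list the median difference was -5.2, -4.69, -1.34 and -1.6 by repeat, and 7, 6, 11 and 14 genes fell without repeats 1 to 4 in turn.

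Mast cell genes were low in marked cells. Mcpt4, a chymase of connective tissue mast cells, read 3.1, 2.44, 2.29 and 2.96 in marked cells, under the 40th percentile on 4 of 4 arrays, against 7.68, 8.29, 8.5 and 7.1 in unmarked cells (-5.19, adjusted p = 0.000141). Cpa3, their carboxypeptidase, fell by 4.26 (4.08 ± 0.32 against 8.34 ± 0.54, adjusted p = 0.000141) and Hdc, which makes histamine, by 3.74. The tryptase gene Tpsb2 (-3.04) and the stem cell factor receptor gene Kit (-1.93) fell as well. Of 12 mast cell genes, 8 passed the dim filter, 5 of them only through unmarked arrays, so that those 5 had to be lower in marked cells. With that said as a description, 7 of the 8 fell, these 5 among them, and 7 fell without each repeat in turn. Gata2 rose (1.02, adjusted p = 0.0365), a factor that endothelial cells also express (8.17 in Tom+/Pecam1+ cells). The median difference by repeat was -2.28, -3.14, -3.03 and -3.2.

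Macrophage and monocyte genes fell in 20 of 26 cases and rose in 0 (median -1.58). The lectin receptor genes Clec4d (-3.23) and Clec4e (-3.88) fell by more than Tyrobp (-1.79), Fcer1g (-1.67), the receptor gene Csf1r (-1.62) and the macrophage marker Adgre1 (-1.58), a comparison of sizes without a test. Clec4e passed the dim filter only with unmarked arrays, so low marked values were a condition of its entry. Lyz2, abundant in these cells, read 10.86, 10.87, 11.21 and 10.87 in marked cells, against 11.51, 11.36, 11.99 and 11.94 in unmarked cells (-0.75, adjusted p = 0.0695; chosen after its values were seen). Without repeats 1 to 4 in turn 7, 7, 9 and 23 genes fell. Of 9 dendritic cell genes, Xcr1 (-1.64), Ccr7 (-1.42), Itgax (-2.15) and Flt3 (-1.57) fell, Fscn1, which is no marker of these cells alone, rose (0.69), and 0 to 6 fell without 1 repeat. The dim filter let 2 of the 9 through only with unmarked arrays, and both are among those that fell.

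Of 16 lymphocyte genes on the array, 13 passed the dim filter, 6 of them only through unmarked arrays, and 9 fell, 4 of those 6 among them. In the pan-leukocyte, macrophage, dendritic cell, cytokine, complement, interferon and class II lists 0 to 2 genes passed only in this way, and 0 to 2 of these fell in each list. The median difference was -3.22, -1.8 and -1.34 in repeats 1 to 3 (P48) and -0.09 in repeat 4 (P38), a contrast of ages that rests on 1 repeat and was not tested. Cd3e, a chain of the T cell receptor complex, read 4.81, 5.44, 5.07 and 6.01 in marked cells, against 8.04, 6.84, 7.29 and 6.28 in unmarked cells (-1.78, adjusted p = 0.0175). Il7r differed in every repeat, at 4.35, 4.67, 4.72 and 4.5 in marked cells against 8.42, 8.07, 7.4 and 7.17 in unmarked cells (-3.2, adjusted p = 0.000979). Without repeat 4, 13 of 13 fell, and 1 fell without repeats 1, 2 or 3.

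Mir142, a miRNA gene of blood cells, fell with them, and 3 probe sets of another miRNA cluster rose. All 4 were named after their values were seen, and the files do not say whether such probe sets read the mature miRNA or its longer transcript. The mature sequences are given from RefSeq (GRCm38.p6) for what the host transcripts encode, with the seed, bases 2 to 8, in capitals. Both arms of Mir142 (chr11:87756864-87756927, plus strand) and the arm miR-100-5p of Mir100 (chr9:41531425-41531504, plus strand) are shown, with the Mirlet7a-2 hairpin (chr9:41536716-41536811, plus strand), in which capitals mark the stretch identical to let-7a-5p.
miR-142a-5p: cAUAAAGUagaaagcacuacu
miR-142a-3p: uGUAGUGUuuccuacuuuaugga
miR-100-5p: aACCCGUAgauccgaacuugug
let-7a-2 hairpin: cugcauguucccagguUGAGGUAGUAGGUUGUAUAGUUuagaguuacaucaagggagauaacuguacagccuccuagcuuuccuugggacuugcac
Mir142 read 5.57, 5.63, 5.55 and 5.97 in marked cells, against 8.08, 7.96, 6.82 and 6.9 in unmarked cells (-1.76, adjusted p = 0.017). Mir100 and Mirlet7a-2 lie within the host gene Mir100hg in the annotation, so their probe sets may share a transcript. Mir100hg rose by 0.84 (adjusted p = 0.0416), Mirlet7a-2 by 0.99 (adjusted p = 0.031) and Mir100 by 0.69 (adjusted p = 0.0487), the last with 1 of 4 unmarked values over the 40th percentile. Each of the 4 lost its call without repeat 1 (adjusted p = 0.1 to 0.262) and without repeat 2 (0.0992 to 0.182), as did Mir100 and Mirlet7a-2 without repeat 3 (0.122 and 0.103) and Mir100hg without repeat 4 (0.0676).

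Inflammatory signals were lower as well. Chemokine and cytokine genes fell in 20 of 30 cases and rose in 0 (median -1.45). Il1b, an interleukin of myeloid cells, read 7.06, 7.16, 7.14 and 6.0 in marked cells, against 10.51, 10.58, 10.67 and 10.17 in unmarked cells (-3.64, adjusted p = 0.00119). Cxcl2, which attracts neutrophils, averaged 9.33 ± 0.33 against 10.87 ± 0.24 (-1.55, adjusted p = 0.00292), and Ccl2, which attracts monocytes, 9.41 ± 0.3 against 10.75 ± 0.18 (-1.34, adjusted p = 0.00877). Cxcl16 (-1.5), Ccl7 (-1.34), Cxcl10 (-1.47), Cxcl1 (-1.01) and Osm (-1.62) fell also. Without repeats 1 to 4 in turn 5, 4, 8 and 22 fell.

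Of 10 genes for class II antigen presentation 8 fell and 0 rose (median -1.76). The median of the list by repeat was -2.13, -1.6, -1.7 and -0.74. H2-Aa, a chain of the class II molecule, read 8.4, 8.65, 8.9 and 7.37 in marked cells, against 10.23, 10.15, 10.58 and 10.12 in unmarked cells (-1.94, adjusted p = 0.0203), and H2-DMb2 fell by 3.4. H2-DMb2 differed by -4.54, -3.82, -4.88 and -0.37 in repeats 1 to 4. Its call was lost without repeats 1, 2 or 3 (adjusted p = 0.107, 0.0988 and 0.0855). The transactivator gene Ciita fell by 1.41. Complement genes fell in 8 of 15 cases, from the membrane regulator Cd55 (-1.63, adjusted p = 0.00119) to C1qb (-1.18, adjusted p = 0.0349). Of 20 interferon-induced genes 5 fell, Ifi205 (-4.04) and Ifi204 (-2.27) most, then Rsad2 (-0.89), Oas2 (-0.87) and Irf7 (-0.52), while Isg15 stood at 0.16 (adjusted p = 0.7; chosen after its value was seen). Without 1 repeat, 0 to 10 class II genes, 2 to 10 complement genes and 1 to 8 interferon genes fell. Among the 20 largest decreases were also Chil3 (-3.99), Slc7a11 (-3.55), Ifitm6 (-3.53), Ifi209 (-3.38), Ly6c2 (-3.32) and Gzmc (-3.3). H2-DMb2, Ifi205, Slc7a11, Ifi209 and Gzmc passed the dim filter only with unmarked arrays. Low marked values were a condition of their entry, so their sizes are a description. Gzmc differed by -5.15, -3.46, -4.07 and -0.54 in repeats 1 to 4. Its call was lost without repeats 1, 2 or 3 (adjusted p = 0.13, 0.107 and 0.0871).

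**Figure D5:**
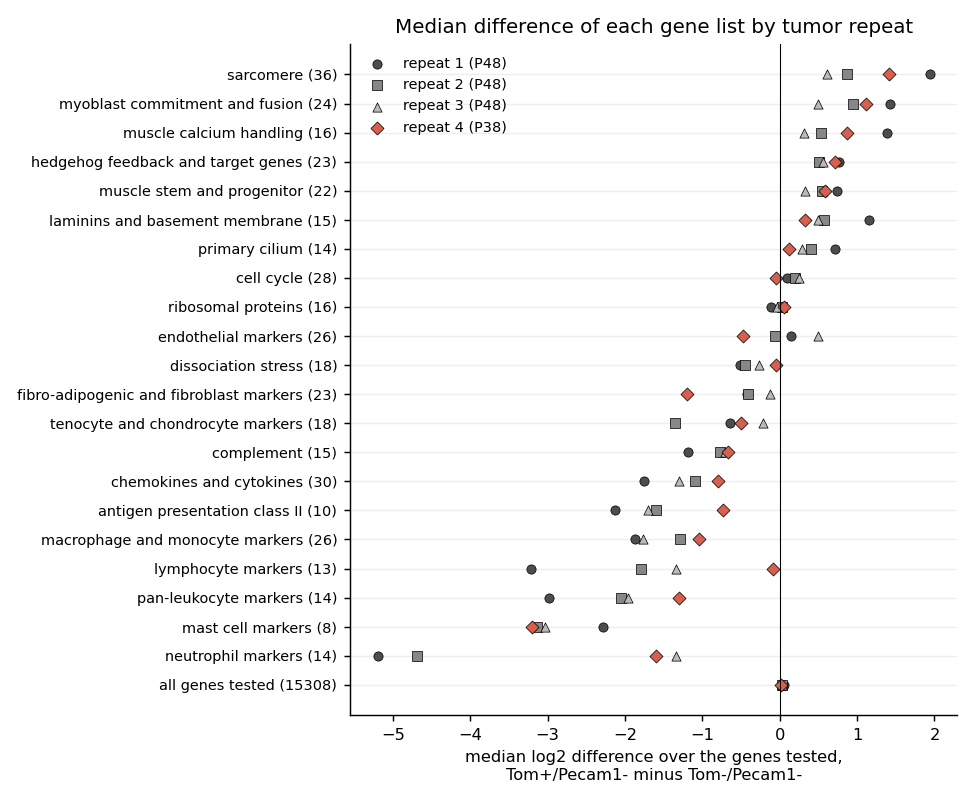
Median log2 difference of Tom+/Pecam1- minus Tom-/Pecam1- cells (x axis) over the genes tested of each list (y axis, number of genes in brackets), with a symbol for each repeat. The muscle and hedgehog lists lie above 0 in 4 of 4 repeats, the leukocyte lists below it, the neutrophil list spans -5.2 to -1.34, and all genes tested lie between 0.01 and 0.06.

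Connective tissue genes fell in part. Of 18 tendon and cartilage genes 7 fell and 1 rose (median -0.91). Tnmd, a membrane protein of tendon cells, read 6.48, 6.4, 6.2 and 5.57 in marked cells, against 8.92, 9.26, 8.69 and 9.14 in unmarked cells (-2.84, adjusted p = 0.000689, and 0.00014 to 0.0114 without 1 repeat). The cartilage matrix gene Chad fell by 3.17, Kera by 3.05, Comp by 1.91, Thbs4 by 1.74, Cilp by 1.61 and the tendon regulator gene Mkx by 1.17. Sox9, a regulator of cartilage that other progenitors use too, rose (1.12, adjusted p = 0.0153), and Scx, which specifies tendon, stood at -0.35 (adjusted p = 0.536; chosen after its value was seen). Without repeats 1 to 4 in turn 2, 2, 5 and 7 of the list fell. The dim filter let 2 of the 18 genes through only with unmarked arrays, and 1 of them fell.

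Genes of fibro-adipogenic progenitors, the mesenchymal cells between muscle fibres, and of fibroblasts fell in 8 of 23 cases and rose in 0 (median -0.49). The membrane peptidase gene Dpp4, of a universal fibroblast type, fell by 3.1 (3.83 ± 0.48 against 6.93 ± 0.94, adjusted p = 0.00498), Pi16 fell by 1.98 (6.96 ± 0.29 against 8.94 ± 0.16, adjusted p = 0.00175), Smoc2 by 1.87 and the factor gene Ebf2 by 1.38. Pdgfra, the surface marker of these progenitors, read 9.4, 9.12, 9.43 and 8.27 in marked cells, against 8.52, 9.09, 8.56 and 9.66 in unmarked cells. Its differences of 0.87, 0.03, 0.87 and -1.39 ran opposite ways and averaged 0.1 (adjusted p = 0.886, and 0.59 with adjusted p = 0.0613 without repeat 4). The mesenchymal filament gene Vim stood at -0.01 (adjusted p = 0.983; named after its value was seen). Without 1 repeat, 2 to 8 fell. The dim filter let 1 of the 23 genes through only with unmarked arrays, and it is among the 8 that fell. The matricellular and proteoglycan list of 32 genes, which shares Chad, Kera, Comp and Thbs4, had 9 that fell, Tnxb (-1.07), Omd (-1.23) and Aspn (-0.8) among them, and 3 that rose, Tnc (0.95), Fbn2 (0.93) and Fbln7 (0.57). Of this list, 2, 2, 5 and 9 fell and 0, 0, 0 and 2 rose without repeats 1 to 4 in turn.

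Of 11 Schwann cell and glial genes 5 fell, the myelin gene Mbp (-1.62, adjusted p = 0.000541), Cdh19, Ncmap (-0.55), Sox10 (-0.62) and Foxd3 (-0.37), and S100b rose (1.47, adjusted p = 0.0162), a calcium-binding protein gene that cartilage and muscle progenitors express too. The dim filter let 2 of the 11 through only with unmarked arrays, and both are among those that fell. Among 15 adipocyte genes the fatty acid transporter gene Cd36 (-1.18, adjusted p = 0.00561) and the adipocyte regulator gene Pparg (-1.16, adjusted p = 0.0125) fell, and 0 rose. Of 16 pericyte and smooth muscle genes Des and Myocd (0.78) rose, and Higd1b (-1.9) and Anpep (-0.84) fell. Of 11 epithelial and salivary gland genes 0 passed by limma (2 at an unadjusted p under 0.05), as did 0 of 5 neuron genes (1 at an unadjusted p under 0.05). Of 6 erythroid and platelet genes the platelet chemokine gene Pf4 fell (-1.24, adjusted p = 0.0109). Dissociation stress genes, induced while tissue is digested, fell in 6 of 18 cases, Atf3 by 1.28 (adjusted p = 0.00379) and Nr4a1 by 1.04 (adjusted p = 0.0361), and rose in 0. Without 1 repeat, 2 to 3 glial genes, 1 to 3 adipocyte genes and 1 to 7 stress genes fell, and 0 to 3 pericyte genes rose and 1 to 2 fell. Pf4 lost its call without repeat 1 (0.0977), and S100b without repeats 1, 2 or 3 (0.0643 to 0.1).

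Endothelial genes were low in both populations. The median level of the 26 genes was 6.07 to 6.52 in marked cells and 5.92 to 6.54 in unmarked cells, against 10.21 to 10.79 in Tom+/Pecam1+ cells. Of these, 3 rose and 2 fell (median -0.06): Sox18, a factor of vessel development, read 7.26, 7.04, 7.27 and 7.65 in marked cells, against 5.35, 5.68, 5.9 and 5.78 in unmarked cells (3.08-fold, adjusted p = 0.00307), and Cdh5 (VE-cadherin, 2.11-fold, adjusted p = 0.0427) and Eng (0.6) rose, while Erg (-1.0) and Cd34 (-0.97) fell. Sox18 held without each repeat (adjusted p up to 0.0296), and Cdh5 lost its call without repeats 1, 2 or 3 (0.12 to 0.195). Over all genes tested 6.2% were called higher and 7.31% lower, so 3 and 2 of 26 stand near those shares. Leaving out repeats 1 to 4 in turn, 1, 1, 1 and 6 of the list rose and 0, 0, 1 and 2 fell. Kdr, the receptor gene for vascular endothelial growth factor, stood at 0.14 (adjusted p = 0.801; chosen after its value was seen). Prox1, which specifies lymphatic endothelium and is also a factor of slow muscle, rose 2.92-fold (8.86 ± 0.3 against 7.32 ± 0.61, adjusted p = 0.0144), and Lyve1 fell (-0.84), a gene of lymphatic vessels and of macrophages. Prox1 lost its call without repeats 1 or 2 (0.113 and 0.0939), and Lyve1 without repeats 1, 3 or 4 (0.0994, 0.142 and 0.0629).

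Whether the contrast of marked with unmarked cells differed from that in normal muscle was tested for 9 key genes, and all 9 passed (4967 of 16008 genes did, 31.0%). The muscle values differ in kind, since the muscle sort had no Pecam1 gate and its Tom+ cells held endothelium (Pecam1 11.18 ± 0.07 in Tom+ and 8.1 ± 0.28 in Tom- cells, SD, n = 3). Muscle and tumor also differ in age and strain, so an effect of SmoM2 on the contrast cannot be told apart from these. Gli1 differed by 2.0 in tumor and by -1.02 in muscle (5.01 ± 0.16 in Tom+ and 6.02 ± 0.14 in Tom- cells), the tumor difference minus the muscle difference being 3.01 (SE 0.45, adjusted p = 0.000291). Hhip differed by 2.89 and -1.07, and Ptch1 by 1.91 and -0.05 (adjusted p = 0.0123 and 0.00902). It was also positive for Pax7 (4.59, adjusted p = 7.01e-05), Myod1 (3.69, adjusted p = 2.62e-05), Myog (5.52, adjusted p = 3.27e-06) and Smo (2.03, adjusted p = 3.58e-05). These genes differed by 1.66, 1.23, 1.52 and 0.99 in tumor, and by -2.93, -2.46, -4.0 and -1.04 in muscle. The sign thus reversed, and for each of them the muscle difference was the larger part. Myog, for example, read 9.74 ± 0.6 in muscle Tom- cells. Pecam1 (-3.34, adjusted p = 8.35e-06) and Fabp4 (-2.02, adjusted p = 0.00789) went the other way. Pecam1-positive cells had been gated out of both tumor populations and not out of muscle, so the sort itself set the outcome for Pecam1.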

How the data were processed

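Values are the deposited log2 intensities of 41345 probe sets on 18 arrays, which the authors made with RMA and Partek per the submitters' processing notes (no versions given, and no array annotation beyond the deposited probe table). Of these, 23521 name 1 symbol and were used, while 1814 that name several and 16010 that name none were not. Each of the 22180 genes was read from its brightest probe set over the 12 tumor arrays. Genes over the 40th percentile on at least 3 of the 12 tumor arrays were tested (15308). The fit was limma 3.58.1 in R 4.3.3 over the 12 tumor arrays with the repeat number as a fixed block (6 residual degrees of freedom, prior 3.68), two-sided, Benjamini-Hochberg over all genes tested, threshold 0.05. Calls refer to this, and an adjusted p is from it unless the sentence names the muscle contrast, whose fit used all 18 arrays with the block within tissue. It was tested on simulated data.

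The block was used because the authors had removed the repeat mean from the deposited values, which voids a check of whether repeat numbers pair the tumor samples. Numbers and ages match between populations of a tumor repeat. p-values measure the spread between these arrays.

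Named genes were 9 key genes, the 20 largest and 20 smallest differences that did not overlap (without provisional symbols), up to 8 members per direction with the smallest adjusted p in each of the 49 gene lists, and others as said. Members and lists were chosen with earlier results of these data known. Some listed genes had no probe set of their own and were not analysed here. Alternatives are given in the closing section. Promoter and miRNA sequences came from RefSeq tables. Figures used matplotlib 3.10.9 in Python 3.11.15 with pandas 2.3.3.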

Additional observations from a re-analysis of the deposited data

Results flagged for a closer look

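Of 92 groups of 4 values tested over the key genes and the largest changes, 3 held a value apart from the others. Chance alone flags about 1 in 20, and 3 of 92 does not exceed that share. Levels of different repeats carry a removed mean, so these are values and not a ranking of tumors. Fabp4 in unmarked cells of repeat 4 read 10.62, against 9.29 to 9.51 in the others. Adamdec1 in unmarked cells of repeat 3 read 5.28, against 5.68 to 5.72. Il1b in marked cells of repeat 4 read 6.0, against 7.06 to 7.16.

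The difference of marked from unmarked cells differed between tumor and muscle by the test of that difference for Gli1 (3.01), Ptch1 (1.96), Hhip (3.96), Smo (2.03), Pax7 (4.59), Myod1 (3.69), Myog (5.52), Pecam1 (-3.34) and Fabp4 (-2.02).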

How the results depend on the processing

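The values are differences within a repeat, and the deposited values carry no repeat mean, so that fits without the replicate block count a spread already narrowed. With no replicate block they called 2102 genes higher and 1901 lower over the 12 tumor arrays, and 2154 and 1894 over all 18 arrays. With the repeat as a random effect the counts were again 2102 and 1901 (correlation -0.49). All 2068 calls kept their direction and call over the 12 tumor arrays without the block and with the random effect. With the repeat means already removed, these fits leave the differences unchanged and count 9 residual degrees of freedom in place of 6. That the calls were kept therefore says nothing of their stability. Array weights gave 2130 higher and 1987 lower, an adjusted p of 0.01 gave 164 and 325, and a fold of at least 2 gave 281 and 616. Without 1 repeat the counts lay between 85 and 1150 higher and between 252 and 1475 lower, with fewer residual degrees of freedom (4 in place of 6), and repeats 1 and 2 lowered them most. Of the 234 called genes named, 165 lost the call without repeat 1, 149 without repeat 2, 87 without repeat 3 and 16 without repeat 4. The other alternatives (8 arrays, the block within tissue, dim filters, quantile normalization, centring, the mean of probe sets, and trended robust variance) stayed within 1.5 times of both counts. The 8 arrays alone shared 76.6% of the calls, and of the 234 genes 33 lost the call there, 20 without the dim filter and up to 3 in the others of this group. None of the settings run turned the direction of a named gene that was called. The 9 tests of tumor against muscle kept their calls in each alternative fit. Dim genes are limited by signal: a gene under the 40th percentile in unmarked cells has a difference that may be too small.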
